A study of Homo sapiens with 4 samples.

Results

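The genes described here are 43 human genes that carry sugar into the cell and through glycolysis, galactose use and the pentose phosphate pathway, with the kinases and arrestins that set how much sugar flows. They were chosen by name, from what the genes do, but with earlier results of these data known. Shares of members set beside all genes are therefore descriptions. A member was matched to its RefSeq or Ensembl transcripts, and the one with most counts over both lines was taken for the gene. All 43 were found among 34555 named genes, and 42 of them had a mean of at least 50 counts over both cell lines, as did 15440 of all named genes. LM2 (MDA-MB-231-LM2), a subline that spreads readily to the lung, was set against its parent MDA-MB-231, a human triple-negative breast cancer line of mesenchymal form. LM2 was grown in DMEM with 10% fetal bovine serum, in air with added carbon dioxide. MDA-MB-231 was grown in Leibovitz L-15 with 10% fetal bovine serum, in air alone. L-15 is a medium made with galactose in place of glucose, whereas DMEM holds glucose, so sugar, medium, gas and cell line cannot be told apart in any value below. No treatment or gene change is labelled in either line.

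Glycolysis splits glucose into pyruvate in the cytosol, and lactate dehydrogenase turns pyruvate into lactate while the pyruvate dehydrogenase complex sends it to the mitochondria. Galactose enters the same path more slowly, after conversion to glucose 1-phosphate by the enzymes of the Leloir pathway. The pentose phosphate pathway draws on glucose 6-phosphate to make NADPH and ribose, and its later enzymes return sugar phosphates to glycolysis. Breast cancer cells are known for a high use of glucose even where oxygen is plentiful.

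RNA was sequenced, and a table of transcript counts and another of RPKM were deposited, each with 1 column per cell line, where RPKM is the count scaled to the length of the transcript and the sum of the column. The labels name 2 samples per line, and the sources used here do not say whether a column holds 1 library or both. No value below has a replicate behind it, and no test across samples was run. The columns summed to 128985870 counts in LM2 and 130689252 in MDA-MB-231 over 65423 transcripts. Ratios put the count share of LM2 over that of MDA-MB-231, and the 95% interval after a ratio is exact (Clopper-Pearson) and covers counting error only. Of the line markers, vimentin (VIM) was at 951 RPKM in LM2 and 550 in MDA-MB-231, and CD44 was at 19.0 and 23.0. EPCAM was at 1.6 and 1.61 RPKM. The estrogen receptor gene ESR1 had 8 counts in LM2 and 2 in MDA-MB-231, and the progesterone receptor gene PGR had 2 and 7. ERBB2 (HER2) RNA was present, at 3.22 RPKM in LM2 and 4.91 in MDA-MB-231, above EPCAM in both lines. E-cadherin (CDH1) had 0 counts in LM2, which allows up to 3, and 13 in MDA-MB-231.

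Summed over paralogs, each step from hexokinase to lactate dehydrogenase was more abundant in LM2, although HK2 and PFKL were lower and ENO2 was level. Most of the sugar transporters and galactose enzymes among the members were less abundant. Summed over all members, the level was 4389 RPKM in LM2 and 2961 in MDA-MB-231, a ratio of 1.48. GAPDH, ENO1 and PKM alone made up 59.7% of that sum in LM2 and 55.7% in MDA-MB-231, and the other 40 members summed to 1767 and 1310 RPKM, a ratio of 1.35. Of the 42 members with enough counts, 25 (59.5%) were higher in LM2, beside 49.6% of all genes, and 17 were lower, with SLC2A3 and PGM1 on the lower side where the totals left out the 12 largest transcripts. The interval lay above 1 for 24 (57.1%), beside 37.0% of all genes, and below 1 for 16 (38.1%), beside 38.3%, so the share below was that of all genes. It held 1 for SLC2A3 and ENO2. Intervals narrow as counts grow, so these shares also depend on how abundant the genes are. In bulk RNA, a difference in some cells and a difference in the RNA of every cell cannot be told apart.

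Large differences were few and ran both ways. Over 2-fold higher in LM2 were 4 members (9.52%), ALDOC, PFKFB4, LDHB and PDK4, beside 4.58% of all genes with enough counts. Over 2-fold lower were also 4 (9.52%), SLC2A1, SLC2A8, HK2 and PDK3, beside 6.90% of all genes. Over 1.5-fold higher were 12 (28.6%), beside 10.7% of all genes, and over 1.5-fold lower were 5 (11.9%), beside 15.5%. The median log2 ratio of the members was 0.17, beside 0.00 for all genes. Single members ranged widely around it, from -1.45 to 1.71, and 17 of the 42 were lower.

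**Figure D1:**
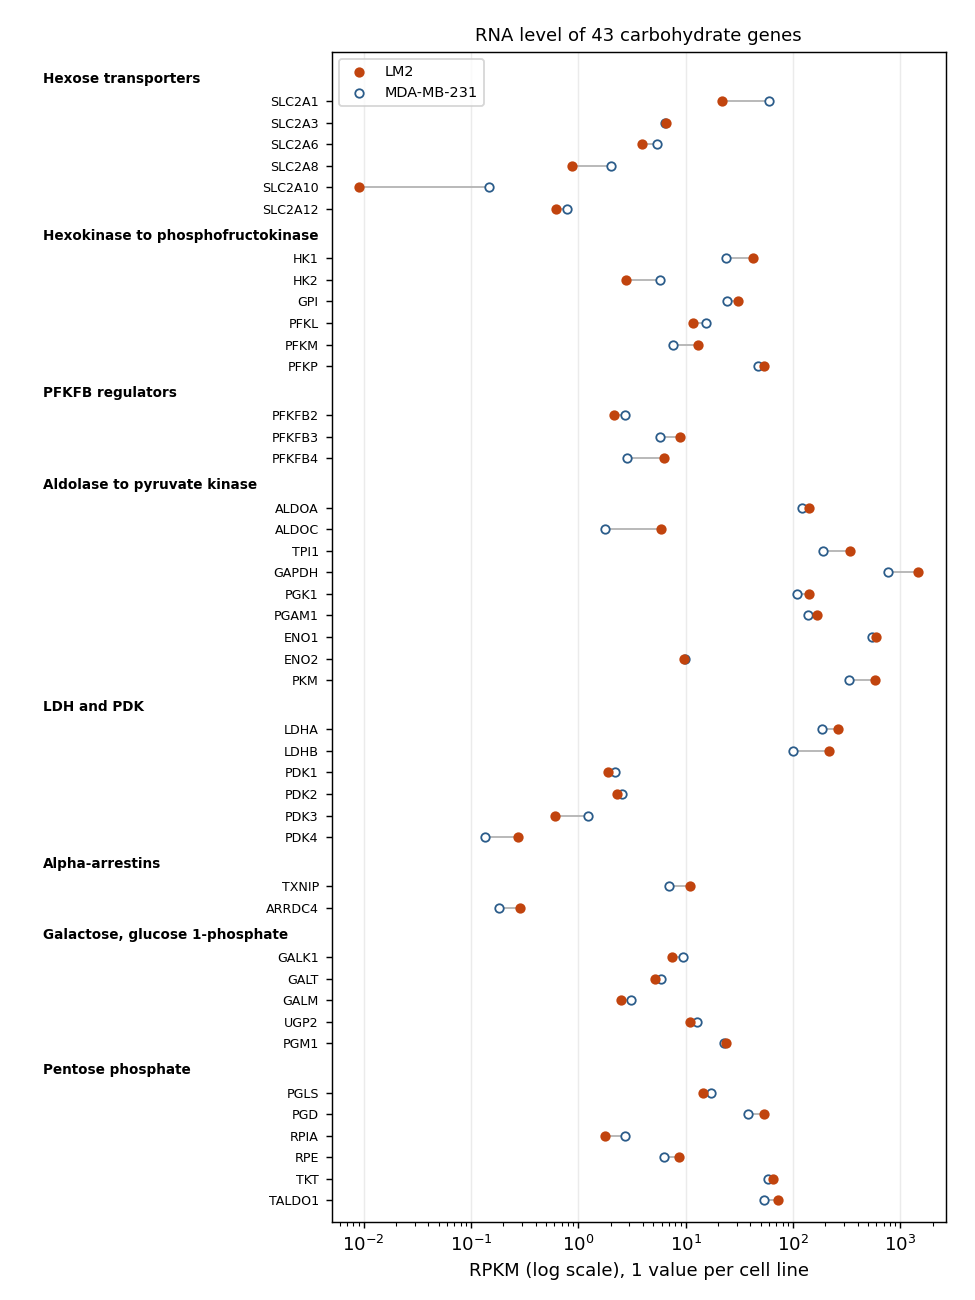
Level of each of the 43 genes in LM2 (filled points) and MDA-MB-231 (open points), as RPKM on a log10 axis, grouped by role. Levels span from 0.00915 RPKM for SLC2A10 in LM2 to 1456 RPKM for GAPDH in LM2, and each pair of points is 1 column per cell line.

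Facilitative hexose transporters of the SLC2A family let sugar cross membranes down its gradient. Of these, SLC2A1 (GLUT1), the main basal glucose transporter of most cell types, was at 21.8 RPKM in LM2 against 59.4 in MDA-MB-231. Its counts were 10328 in LM2 and 28498 in MDA-MB-231, so it was 2.72-fold lower (2.66 to 2.79). SLC2A3 (GLUT3), a high-affinity glucose transporter, was level, with 3356 counts in LM2 and 3318 in MDA-MB-231 (6.61 and 6.45 RPKM) and a ratio of 1.02 (0.977 to 1.08). GLUT3 RNA made up 19.5% of the summed transporter RPKM in LM2 and 8.68% in MDA-MB-231, and SLC2A1 made up 64.5% and 80.0%. The ratio of SLC2A3 to SLC2A1 was thus 2.79 times as large in LM2 (2.65 to 2.94).

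The other 4 transporters among the members were lower in LM2. Of 8 further transporter genes outside the members, 3 had enough counts. The interval lay above 1 for 1 of them and below 1 for 1, and it held 1 for SLC2A14 (0.805 to 1.80). SLC2A8 (GLUT8), which sits mostly on membranes inside the cell, had 244 counts in LM2 and 568 in MDA-MB-231 (0.872 and 2.0 RPKM), 2.30-fold lower (1.97 to 2.68). SLC2A6 (GLUT6), a lysosomal transporter, had 1278 and 1817 counts (3.89 and 5.46 RPKM), 1.40-fold lower. SLC2A12 (GLUT12) had 446 and 576 counts (0.618 and 0.787 RPKM), 1.27-fold lower. In the gene models, 38.9% of SLC2A12 exon bases lie opposite exons of TBPL1, which had 705 counts in LM2 and 544 in MDA-MB-231. The sources used here do not say whether strand was used in counting, so reads of both genes may be mixed. SLC2A10 (GLUT10) was near the floor, with 5 counts in LM2 and 81 in MDA-MB-231 (0.00915 and 0.146 RPKM), 16.0-fold lower with a wide interval (6.58 to 50.6), and its mean count kept it out of the tallies. The 6 transporters summed to 33.8 RPKM in LM2 and 74.3 in MDA-MB-231.

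TXNIP and ARRDC4 are alpha-arrestins that remove glucose transporters from the cell surface, and TXNIP also binds thioredoxin. Both genes are known targets of the glucose-sensing transcription factors MondoA (MLXIP) and ChREBP (MLXIPL), which act with MLX on carbohydrate response elements. TXNIP had 4203 counts in LM2 and 2703 in MDA-MB-231 (11.1 and 7.07 RPKM), 1.58-fold higher (1.5 to 1.65). ARRDC4 had 150 and 98 counts (0.286 and 0.184 RPKM), 1.55-fold higher (1.19 to 2.02). The ratio of TXNIP to ARRDC4 was 38.9 in LM2 and 38.3 in MDA-MB-231, so both differed between the lines by about the same factor (1.02, 0.784 to 1.32). MLXIP itself had 576 counts in LM2 and 909 in MDA-MB-231, and MLXIPL had 25 and 48, a mean under 50 counts. MLX had 4515 and 4007 counts, a ratio of 1.14.

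Promoter sequence was read for the arrestins, which are known to respond to glucose, and for ALDOC, the member with the largest ratio. Each stretch below is RefSeq sequence of build GRCh38.p14, from 250 bases before to 50 after an annotated start, printed 5′ to 3′ on the strand of the gene. Capitals mark a carbohydrate response element pair in TXNIP (CACGNG or CNCGTG, then 5 bases, then CACGNG or CNCGTG) and an E-box, CACGTG, in the others. The TXNIP stretch is chr1:145996530-145996829 on the minus strand, that of ARRDC4 is chr15:97960453-97960752 on the plus strand, and that of ALDOC is chr17:28576846-28577145 on the minus strand.
TXNIP: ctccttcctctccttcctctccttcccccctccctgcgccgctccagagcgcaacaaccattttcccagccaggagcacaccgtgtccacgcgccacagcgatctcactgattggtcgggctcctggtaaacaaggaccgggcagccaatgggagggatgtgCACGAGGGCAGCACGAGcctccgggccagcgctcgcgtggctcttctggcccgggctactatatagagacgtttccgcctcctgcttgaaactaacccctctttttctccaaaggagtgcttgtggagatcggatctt
ARRDC4: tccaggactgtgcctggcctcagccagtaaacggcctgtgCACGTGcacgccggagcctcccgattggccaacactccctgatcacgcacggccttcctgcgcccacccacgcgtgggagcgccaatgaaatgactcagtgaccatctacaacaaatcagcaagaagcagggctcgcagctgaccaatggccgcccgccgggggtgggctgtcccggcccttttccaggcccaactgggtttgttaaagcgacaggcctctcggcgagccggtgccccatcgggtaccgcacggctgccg
ALDOC: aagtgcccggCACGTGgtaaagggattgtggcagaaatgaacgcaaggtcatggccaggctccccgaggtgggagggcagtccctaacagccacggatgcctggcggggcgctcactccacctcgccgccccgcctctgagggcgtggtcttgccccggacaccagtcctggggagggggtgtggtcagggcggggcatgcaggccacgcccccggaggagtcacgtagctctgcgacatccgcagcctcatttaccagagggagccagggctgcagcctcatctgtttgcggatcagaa
The pair in TXNIP begins at base -88 from the start. Searched on both strands, it was present in 27 of 35116 promoters in the table (0.0769%), and TXNIP was the only match among the 41 members with a listed promoter. The E-box of ARRDC4 begins at base -210 and that of ALDOC at base -240.

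The E-box was in 9 of 69 member promoters (13%) and in 7.26% of all promoters. Counted by gene, it was in 9 of 41 members (22%) and in 8.77% of all genes, but members have more listed promoters per gene (69 for 41 genes, against 35116 for 27305), which raises a share by gene. Also, an E-box can overlap part of the carbohydrate response pair. The core of the hypoxia response element, ACGTG, was in 26 of 69 member promoters (37.7%) and 21.4% of all promoters, or in 22 of 41 members (53.7%) and 24.9% of all genes. It lies inside the E-box, so those matches overlap. Its other form, GCGTG, was in 28 of 69 member promoters (40.6%) and 36.5% of all promoters, or in 24 of 41 members (58.5%) and 40.6% of all genes. These shares describe letters in a window, and binding was not measured. SLC2A3 and PFKFB2 were not matched.

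Hexokinases trap glucose as glucose 6-phosphate, and the family members differed in direction. HK1, the broadly expressed form, had 19561 counts in LM2 and 11211 in MDA-MB-231 (42.1 and 23.8 RPKM), 1.77-fold higher (1.73 to 1.81). HK2, the inducible form that is abundant in many tumours, had 2540 and 5396 counts (2.78 and 5.82 RPKM), 2.10-fold lower (2.0 to 2.20). HK2 therefore made up 6.18% of hexokinase RPKM in LM2 and 19.6% in MDA-MB-231. The HK1 to HK2 ratio was 15.2 in LM2 and 4.09 in MDA-MB-231, a factor of 3.71 (3.52 to 3.91) that does not depend on the scaling of the columns.

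Glucose 6-phosphate isomerase (GPI) and phosphofructokinase take the sugar to fructose 1,6-bisphosphate, the step that commits it to glycolysis. GPI had 16567 counts in LM2 and 13231 in MDA-MB-231 (30.6 and 24.1 RPKM), 1.27-fold higher. PFKM, the muscle form, had 5438 and 3196 counts (13.1 and 7.59 RPKM), 1.72-fold higher (1.65 to 1.80). PFKL, the liver form, went the other way, with 4425 and 5898 counts (11.8 and 15.5 RPKM), 1.32-fold lower. PFKP, the platelet form, was the most abundant of the 3, with 18590 and 16408 counts (54.2 and 47.3 RPKM) and a ratio of 1.15. PFKM made up 16.5% of phosphofructokinase RPKM in LM2 and 10.8% in MDA-MB-231, PFKL made up 14.9% and 22%, and PFKP made up 68.6% and 67.2%. PFKM over PFKL was 1.11 in LM2 and 0.490 in MDA-MB-231, so the order of these forms was reversed between the lines. In the gene models, 8.58% of PFKM exon bases lie opposite SENP1, which had 1867 counts in LM2 and 1464 in MDA-MB-231.

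The PFKFB enzymes make and break fructose 2,6-bisphosphate, a strong activator of phosphofructokinase. PFKFB4 had 2858 counts in LM2 and 1309 in MDA-MB-231 (6.35 and 2.87 RPKM), 2.21-fold higher (2.07 to 2.36). PFKFB3, whose kinase activity far exceeds its phosphatase activity, had 5191 and 3436 counts (8.85 and 5.78 RPKM), 1.53-fold higher (1.47 to 1.6). PFKFB2, the heart form, had 1956 and 2504 counts (2.14 and 2.71 RPKM), 1.26-fold lower. PFKFB4 thus made up 36.6% of the family's RPKM in LM2 and 25.3% in MDA-MB-231, PFKFB2 made up 12.4% and 23.8%, and PFKFB3 kept a near equal share of 51.0% and 50.9%. UCN2, a gene on the same strand that shares 4.73% of PFKFB4 exon bases, had 1025 counts in LM2 and 207 in MDA-MB-231, and its part in the PFKFB4 result was not tested.

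**Figure D2:**
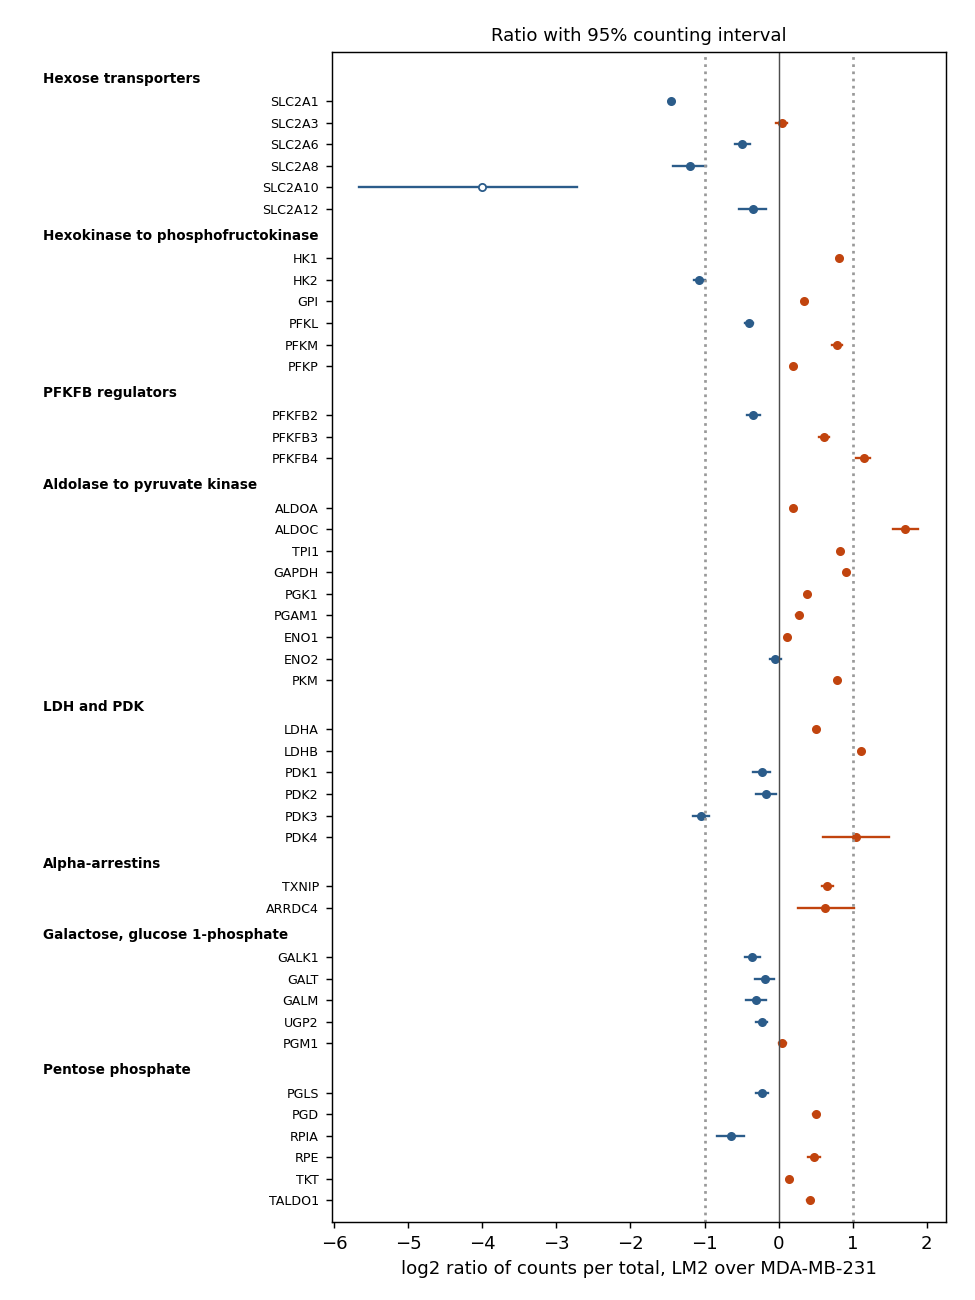
Log2 ratio of LM2 over MDA-MB-231 for the 43 genes, with 95% counting intervals and dotted lines at 2-fold. ALDOC lies farthest to the right at 1.71 and SLC2A1 farthest left at -1.45 among genes with enough counts, and the open circle is SLC2A10, whose mean was under 50 counts.

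The later part of glycolysis, where ATP and NADH are made, had a median log2 ratio of 0.38 over its 9 members. Of these, 8 had an interval above 1, beside 37.0% of all genes, and the interval of ENO2 held 1. GAPDH, which oxidises glyceraldehyde 3-phosphate, had 259755 counts in LM2 and 139623 in MDA-MB-231 (1456 and 772 RPKM), 1.88-fold higher (1.87 to 1.90). TPI1, which interconverts the triose phosphates, had 63435 and 36138 counts (337 and 189 RPKM), 1.78-fold higher. PKM, pyruvate kinase, had 186445 and 108970 counts (578 and 333 RPKM), 1.73-fold higher (1.72 to 1.75). The counting intervals of these abundant RNAs are narrow, so the missing replicates and not depth limit what can be said of them.

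PGK1, PGAM1 and the enolases differed less. PGK1, the first ATP-making step, had 44064 counts in LM2 and 34388 in MDA-MB-231 (141 and 109 RPKM), a ratio of 1.3. PGAM1, the mutase, had 36853 and 31059 counts (166 and 138 RPKM), a ratio of 1.2. ENO1, the main enolase, had 165996 and 155620 counts (588 and 544 RPKM), a ratio of 1.08, and ENO2, the neuronal form, had 3006 and 3147 counts (9.62 and 9.94 RPKM), a ratio of 0.968 (0.92 to 1.02). ENO2 made up 1.61% of the enolase RPKM in LM2 and 1.79% in MDA-MB-231.

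Aldolase cleaves the 6-carbon sugar, and its forms differed in size of ratio. ALDOC, known as the brain form, had 1250 counts in LM2 and 387 in MDA-MB-231 (5.87 and 1.79 RPKM), 3.27-fold higher (2.92 to 3.68), the largest ratio of any member with enough counts. ALDOA, the main form, had 31259 and 27656 counts (140 and 122 RPKM), a ratio of 1.15. ALDOC remained a minor form, at 4.03% of aldolase RPKM in LM2 and 1.45% in MDA-MB-231. Its overlap with an antisense gene model (AC005726.4) covers 10.1% of its exon bases.

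Summed over paralogs, the level was higher in LM2 at all 11 steps from hexokinase to lactate dehydrogenase. Of single genes with enough counts, 49.6% were higher in LM2 at any size, and no such share was taken for sums of paralogs. The ratios were 1.51 for hexokinase, 1.27 for isomerase, 1.12 for phosphofructokinase, 1.18 for aldolase, 1.78 for triose isomerase and 1.88 for GAPDH. They were 1.3 for phosphoglycerate kinase, 1.2 for the mutase, 1.08 for enolase, 1.73 for pyruvate kinase and 1.68 for lactate dehydrogenase. Scaled to totals that leave out the 12 largest transcripts, the log2 ratio of enolase, the smallest, was 0.04 and not 0.11, and each step stayed above 0. The ratio was largest for GAPDH, triose isomerase and pyruvate kinase and smallest for enolase and phosphofructokinase. GAPDH, TPI1 and LDHB lie on chromosome 12, as do PFKM and ENO2, and the genes of that chromosome had a median log2 ratio of 0.33.

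Lactate dehydrogenase is a tetramer of A and B subunits, and the B subunit favours the use of lactate. LDHB had 43203 counts in LM2 and 20307 in MDA-MB-231 (218 and 101 RPKM), 2.16-fold higher (2.12 to 2.19). LDHA had 74543 and 53443 counts (262 and 185 RPKM), a ratio of 1.41 (1.40 to 1.43). LDHB made up 45.4% of the family's RPKM in LM2 and 35.3% in MDA-MB-231, so LDHA stayed the more abundant form in both. LDHB over LDHA was 1.53 times as large in LM2 (1.5 to 1.56).

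Pyruvate dehydrogenase kinases switch off the pyruvate dehydrogenase complex. PDK4, the form tied to fasting and fat use, had 132 counts in LM2 and 65 in MDA-MB-231 (0.277 and 0.134 RPKM), 2.06-fold higher, but its interval of 1.52 to 2.81 is wide. PDK3 had 991 and 2073 counts (0.601 and 1.24 RPKM), 2.06-fold lower (1.91 to 2.23). PDK1, known as a target of hypoxia signalling, had 1114 and 1323 counts (1.89 and 2.21 RPKM), 1.17-fold lower, and PDK2 had 782 and 893 counts (2.28 and 2.57 RPKM), 1.13-fold lower. PDK4 was the least abundant of the 4 in both lines, at 5.48% of kinase RPKM in LM2 and 2.18% in MDA-MB-231, while PDK3 made up 11.9% and 20.2%. The PDK3 share rests on its 12779-base model, and its 1803-base model was not used for it. In the gene models, 38.6% of PDK2 exon bases lie opposite SAMD14, which had 22 counts in LM2 and 40 in MDA-MB-231.

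**Figure D3:**
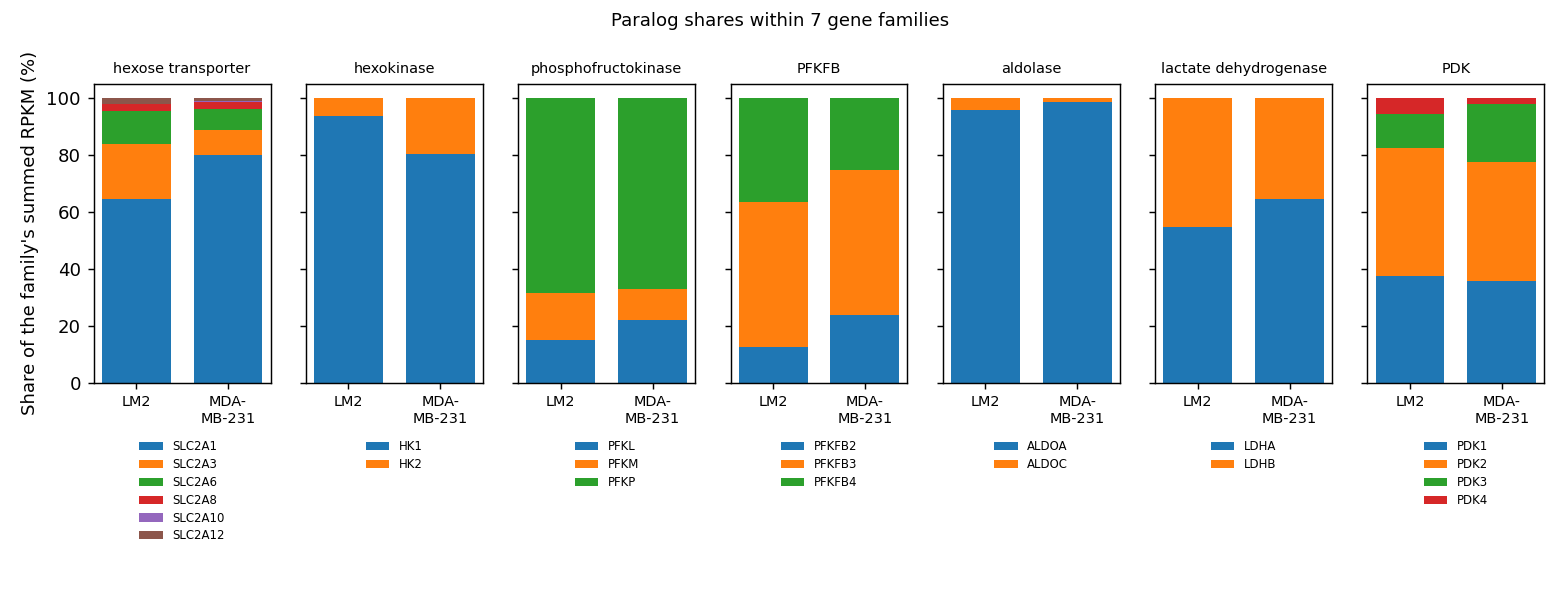
Share of the summed RPKM of each family held by each paralog, in percent, with LM2 drawn before MDA-MB-231. HK2 holds 6.18% of hexokinase in LM2 and 19.6% in MDA-MB-231, LDHB holds 45.4% and 35.3%, and PFKFB4 holds 36.6% and 25.3%.

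Galactose enzymes were slightly lower in LM2, and a link to the sugar of the medium was not tested. The interval lay below 1 for 4 of the 5 members for galactose and glucose 1-phosphate, beside 38.3% of all genes. GALM, which turns beta-galactose into the alpha form, had 805 counts in LM2 and 1010 in MDA-MB-231 (2.51 and 3.11 RPKM), 1.24-fold lower. GALK1, galactokinase, had 1304 and 1692 counts (7.43 and 9.51 RPKM), 1.28-fold lower (1.19 to 1.38), and GALT, the uridylyltransferase, had 939 and 1087 counts (5.18 and 5.92 RPKM), 1.14-fold lower. In the gene models, AL162231.3 and IL11RA on the same strand share 11.2% and 7.58% of GALT exon bases. IL11RA had 135 counts in LM2 and 144 in MDA-MB-231, so reads of these genes may be mixed. UGP2, which makes UDP-glucose, had 2998 and 3569 counts (11.0 and 12.9 RPKM), 1.17-fold lower, and PGM1, phosphoglucomutase, had 7513 and 7360 counts (23.6 and 22.8 RPKM), a ratio of 1.03 (1.0 to 1.07). No member of this group passed 1.5-fold. Its 5 members summed to 49.7 RPKM in LM2 and 54.3 in MDA-MB-231.

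The pentose phosphate enzymes were mixed. PGLS, the lactonase of the path, had 1950 counts in LM2 and 2306 in MDA-MB-231 (14.6 and 17.1 RPKM), 1.17-fold lower. PGD, which makes NADPH, had 13435 and 9635 counts (53.8 and 38.1 RPKM), 1.41-fold higher. These consecutive enzymes thus differed in direction between the lines.

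The non-oxidative enzymes also went both ways. RPIA, ribose 5-phosphate isomerase, had 416 counts in LM2 and 659 in MDA-MB-231 (1.76 and 2.75 RPKM), 1.56-fold lower (1.38 to 1.77). RPE, the epimerase that acts on the same ribulose 5-phosphate, had 2767 and 2009 counts (8.69 and 6.23 RPKM), 1.40-fold higher. Opposite exons of KANSL1L, with 1367 counts in LM2 and 1108 in MDA-MB-231, cover 23.8% of RPE exon bases. TALDO1, transaldolase, had 11580 counts in LM2 and 8700 in MDA-MB-231 (72.2 and 53.6 RPKM), a ratio of 1.35. TKT, transketolase, had 18379 and 16880 counts (65.2 and 59.1 RPKM), a ratio of 1.10, so the most abundant member of the group was TALDO1 in LM2 and TKT in MDA-MB-231.

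Neighbouring genes were compared with the members, since genes of 1 region can differ together and copy number was not measured. The median log2 ratio of the 30 nearest genes with enough counts was taken for each member (23 for PFKP, near a chromosome end). On chromosome 12, 759 genes had a median log2 ratio of 0.33, and 28.5% of them were over 1.5-fold higher in LM2. The 6 members there are SLC2A3, ENO2, GAPDH, TPI1, PFKM and LDHB, and 4 of them were over 1.5-fold higher. Neighbours had a median of 0.70 around LDHB, 0.44 around GAPDH, 0.39 around TPI1 and 0.40 around PFKM, each below the log2 ratio of the gene itself (1.11, 0.91, 0.83 and 0.79). SLC2A3 and ENO2, at 0.04 and -0.05, lay below their neighbours, at 0.40 for both. With chromosome 12 left out, 8 of 36 members (22.2%) were over 1.5-fold higher, beside 9.74% of 14681 genes.

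Elsewhere, ARRDC4 lay among genes with a median of 0.98, above its own 0.63, and PDK3 lay among genes with a median of -0.80, near its own -1.05. By contrast TXNIP, at 0.66, was above each of its 30 nearest genes, whose median was -0.17. ALDOC at 1.71 was also above each of 30 neighbours (median 0.03), and HK2 at -1.07 was below each of 30 (median -0.27). PFKFB4 (1.15 against 0.22), PDK4 (1.04 against -0.08) and PKM (0.79 against -0.02) exceeded their neighbours by over 1.5-fold, and SLC2A1 (-1.45 against -0.12) and SLC2A8 (-1.2 against -0.25) lay below theirs by over 1.5-fold. In all, 5 members with enough counts exceeded their neighbours by over 1.5-fold and 3 were lower by as much. The same was not counted for all genes, so no share stands beside these counts. How often any gene lies above or below each of its 30 nearest genes was also not counted.

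**Figure D4:**
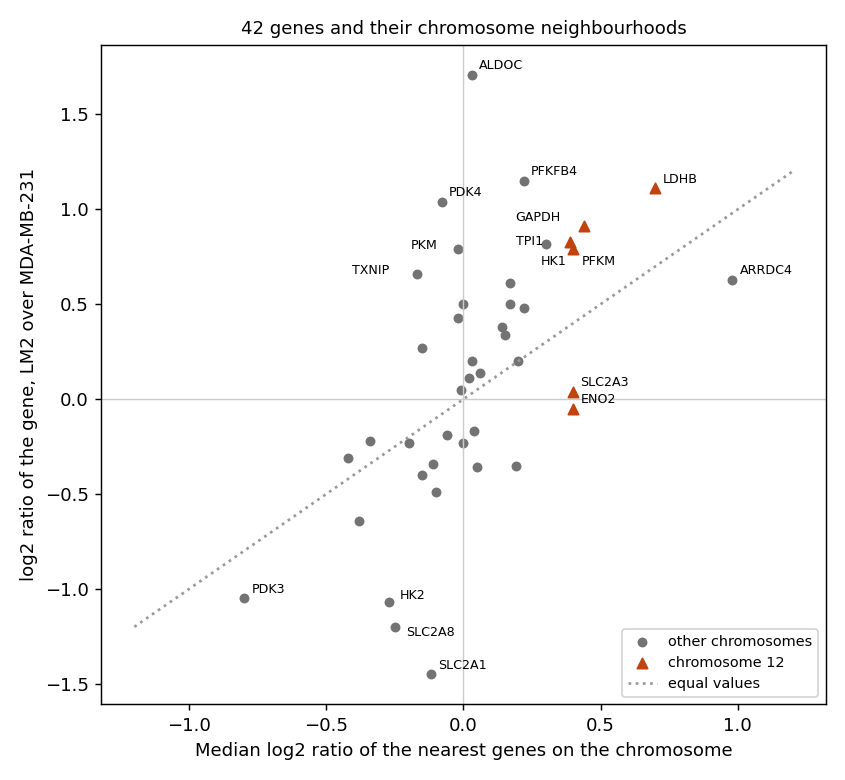
Log2 ratio of each of 42 genes (y axis) against the median log2 ratio of its nearest genes on the chromosome (x axis), with triangles for chromosome 12 and a dotted line of equal values. LDHB, GAPDH, TPI1 and PFKM sit at neighbour medians of 0.39 to 0.70, whereas ALDOC, PDK4, PKM and TXNIP sit near 0.

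Other genes of the same pathways, 114 in all and 89 with enough counts, were taken from lists chosen by function. These lists too were chosen with earlier results of these data known. Past 2-fold, 4 (4.49%) were higher in LM2, beside 4.58% of all genes, and 7 (7.87%) were lower, beside 6.90%. These shares are near those of all genes, the median log2 ratio was -0.02, and the values below describe single genes only. Of the enzymes of fructose, mannose and hexosamine use, GFPT2, which starts hexosamine synthesis, had 9509 counts in LM2 and 1519 in MDA-MB-231, 6.34-fold higher (6.01 to 6.70). AKR1B1, aldose reductase, had 4642 and 2251 counts, 2.09-fold higher. PCK2, the mitochondrial PEP carboxykinase, had 1421 and 617 counts, 2.33-fold higher, and PPARGC1A, a coactivator of mitochondrial genes, had 763 and 212 counts, 3.65-fold higher.

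The 7 lower genes came from several lists. FBP1, which opposes phosphofructokinase in gluconeogenesis, had 885 counts in LM2 and 2487 in MDA-MB-231, 2.77-fold lower (2.57 to 3.0). HKDC1, a hexokinase-like gene, had 384 and 871 counts, 2.24-fold lower. PPP1R3D, a glycogen-targeting phosphatase subunit, had 304 and 822 counts, 2.67-fold lower, and RBKS, ribokinase, had 50 and 158 counts, 3.12-fold lower. GYG2, a glycogenin, had 5 and 216 counts, 42.6-fold lower (18.0 to 133).

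PRPS2, which makes PRPP from ribose 5-phosphate, had 1829 counts in LM2 and 4649 in MDA-MB-231, 2.51-fold lower, and PHKA2, a phosphorylase kinase subunit, had 489 and 1268 counts, 2.56-fold lower. These 2 genes, GYG2, PDK3 and PDHA1, a subunit of the pyruvate dehydrogenase complex, are all on the X chromosome. Their neighbours had medians of -1.02 for PRPS2, -1.02 for PHKA2, -1.12 for GYG2 (15 neighbours), -0.80 for PDK3 and -0.99 for PDHA1, while PGK1, also on X, had neighbours at 0.14. PDHA1 had 3239 and 5150 counts, a log2 ratio of -0.65. PHKA1, a further phosphorylase kinase subunit on X, was lower at -0.60, although its neighbours had a median of 0.21.

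**Figure D5:**
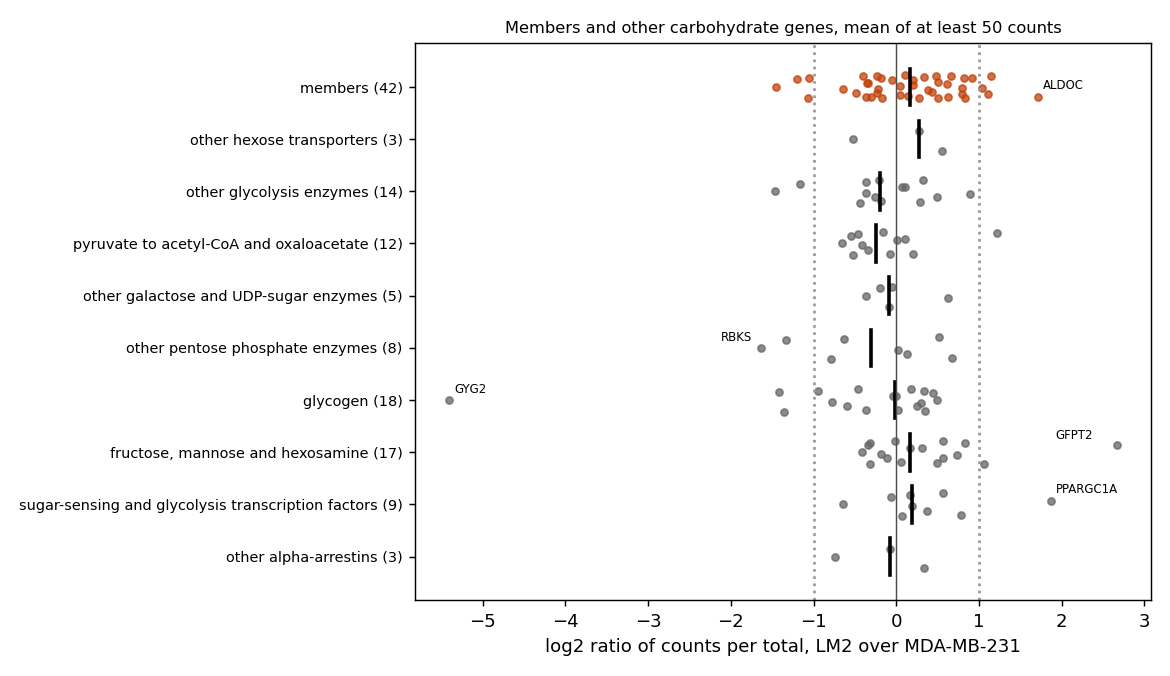
Log2 ratio of LM2 over MDA-MB-231 for the 42 members and 89 other carbohydrate genes with enough counts, 1 row per list, with bars at the medians and dotted lines at 2-fold. The members have a median of 0.17, and GFPT2 at 2.67 and GYG2 at -5.41 lie farthest out among the other genes.

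Transcript models and near-copies limit some values. Of the members, 22 had more than 1 transcript in the table, 91 transcripts in all. The 7 PKM transcripts had log2 ratios of 0.79 to 0.80, and since their counts hold largely the same reads, PKM1 and PKM2 splicing could not be read from them. For LDHB, transcripts NM_001174097 and NM_002300 both had 1.11. The 2 models of PDK3 differed, at -1.05 for NM_001142386 and -0.66 for NM_005391, the shorter one, with 202 counts in LM2 and 324 in MDA-MB-231. ENO1 was the other member whose transcripts differed by over 0.2 in log2 ratio.

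Every run of 50 bases in a GENCODE 29 transcript of each member was looked up in the transcripts of other genes, a check chosen after the values were seen. For 17 of 43 members no run was shared, among them TXNIP, ARRDC4, HK1, PFKM, PFKFB3, PFKFB4, PDK3, PDK4 and SLC2A8. Only 1 transcript per member was looked up. For PDK3 it has 1921 bases, against 12779 in the model counted, so most of that model was not searched. PFKM and PFKFB4 are on this list although their gene models overlap exons of SENP1 and UCN2. Over 5% of runs were shared for 19. SLC2A3 shared 24.2%, most with its near-copy SLC2A14, which had 57 counts in LM2 and 48 in MDA-MB-231. TPI1 shared 25.2%, most with TPI1P1, and GAPDH shared 31.4% and PGAM1 43.3%, over 14 and 10 other genes. LDHB (58.5%) and ALDOA (88.1%) shared runs chiefly with gene models on the same strand that overlap them. The sources used here do not say how such reads were assigned, so the values of these genes are uncertain to that extent.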

How the data were processed

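RNA from cultured LM2 and MDA-MB-231 cells was extracted with Trizol and sequenced by the authors on Illumina libraries. The submitters' processing notes name bcl2fastq, TopHat2 2.0.13 and the build hg19 (GRCh37). The sources used here give no counting tool, annotation, strand setting or read length. The authors deposited 1 column of raw transcript counts and 1 column of RPKM per cell line, in separate tables, although 4 samples (2 per line) are labelled. The deposited RPKM equal counts divided by transcript length and column total, with a largest relative difference of 4.98e-06. The columns summed to 128985870 counts (LM2) and 130689252 counts (MDA-MB-231), so 1 RPKM over 1 kilobase is about 129 and 131 counts.

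Ratios were formed from counts over column totals, with exact Clopper-Pearson intervals at 95% (scipy 1.17.1), which cover counting error only. Intervals for ratios between paralogs used a log-normal approximation of counting error. A gene was represented by its transcript with the highest mean count and counted in tallies from a mean of 50. Genes and lists were chosen with earlier results of these data known. Every member was named, as were other pathway genes over 2-fold (at most 4 a list by size). Some genes of these pathways are not reported here. Of the genes outside this rule, PDHA1, PHKA1, MLXIP, MLXIPL, MLX, SLC2A14, UCN2 and genes that overlap members were picked once values were known. Names, gene order and promoters came from RefSeq tables of GRCh38.p14 and exon overlaps, a check added once values were known, from GENCODE 29, and no coordinates were converted between builds. Alternatives used the scaling factors of edgeR 4.0.16 and DESeq2 1.42.0 (R 4.3.3) with no test. The interval calculation was checked on simulated data. Protein identity between paralogs was planned and not run, since no protein table was used here.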

Additional observations from a re-analysis of the deposited data

How the results depend on the processing

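No paired analysis was possible because each table holds 1 column per cell line, and for the same reason no sample could be left out in turn and no DESeq2 or edgeR test could be run. The counts of members over 2-fold (4 higher and 4 lower) and the median log2 ratio of 0.17 came out equal with TMM, DESeq2 and upper-quartile factors. With each of these factors, 4.59% of all genes were over 2-fold higher and 6.87% to 6.88% lower. The 12 largest transcripts hold 27.4% of counts in LM2 and 30.7% in MDA-MB-231. Totals without them gave 3 higher (PDK4 lay at 0.97 in log2) and 4 lower of 42 members, beside 4.18% and 7.76% of all genes. The median was then 0.10, beside -0.07 for all genes, with PGM1 at -0.02 and SLC2A3 at -0.03. Summing the transcripts of a gene gave 4 higher, 3 lower (PDK3 lay at -0.99) and 0.15 over 42 members, beside 5.03% and 7.51% of all genes. The lower share of members was then just under that of all genes. No minimum count gave 4, 5 and 0.14 over 43 members, beside 14.8% and 16.5% of all genes, so both shares of members were below those of all genes. A mean of at least 200 counts gave 3, 4 and 0.13 over 40 members, beside 3.09% and 5.22% of all genes. Outside chromosome 12, an alternative chosen after seeing the data, 3 of 36 members were over 2-fold higher and 4 lower, with a median of 0.13. Of all genes outside chromosome 12, 4.37% were over 2-fold higher and 7.12% lower, with a median of -0.02. On the log2(RPKM + 1) scale low genes were compressed, SLC2A10 to -0.18 and PDK4 to 0.17.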
